A study of Homo sapiens with 12 samples.

Results

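The transcripts described here are those of 52 genes of mitosis, out of 58735 genes in the count table. They were chosen by gene name for their known roles: 11 kinases, cyclins and kinase regulators, 2 transcription factors, 9 kinesins, 4 spindle assembly factors, 15 genes of the kinetochore, the spindle checkpoint and anaphase, 6 of condensin and the mitotic chromosome, and 5 of cytokinesis. RNA was sequenced from Ovcar8, a long-established cell line of high-grade serous cancer of the ovary, in 4 groups of 3 libraries. The control group was cells labelled control, the next overexpressed CCNE1, the gene of cyclin E1, and the remaining groups carried CCNE1 overexpression together with shTMLHE #1 or shTMLHE #2. These are short hairpin RNAs against TMLHE, the gene of the enzyme that starts carnitine synthesis. All cells, control included, had been infected with lentivirus, kept in RPMI-1640 medium with 5% serum and selected with puromycin at 3 µg/ml for 2 to 3 days. The labels name no group with a hairpin of another target and give a single population for each group, so the construct and other differences between populations cannot be told apart. They do not say that the 3 libraries of a group were separate cultures, and p-values measure only the spread between these libraries, which may be technical.

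Mitosis is started by CDK1 bound to cyclin B, which is switched on by CDC25 phosphatases and supported by the polo-like kinase PLK1 and the Aurora kinases. Condensin and topoisomerase II compact the chromosomes, kinesin motors build the spindle, and the spindle checkpoint holds the anaphase-promoting complex in check until every kinetochore is attached to microtubules. CDC20 then activates that complex, securin and cyclin B are destroyed, sister chromatids part, and the midzone proteins drive cytokinesis. Many of these genes are transcribed together late in the cell cycle, when the MuvB complex with MYBL2 (B-MYB) and FOXM1 acts on promoters that hold a cell cycle homology region, called CHR. In bulk RNA, fewer cells in mitosis and less RNA per cell cannot be told apart.

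Library totals, in M counts, were 14.1 to 16.6 for control, 15.8 to 21.5 for CCNE1, 14.9 to 16.3 for shTMLHE #1 and 14.6 to 19.9 for shTMLHE #2. CCNE1 stood at means of 33.1, 1001, 1269 and 847 CPM in that order (counts relative to the scaled library total), and TMLHE at 16.5, 15.7, 0.956 and 0.482 CPM, each on the side its group's label gives. The ovarian marker PAX8 stood at 69.9 to 150 CPM in the group means and keratins KRT7, KRT8 and KRT18 were present, whereas MUC16 and MECOM had 0 counts in all 12 libraries. Other markers of the same list were low in the group means, with EPCAM at 2.51 to 3.27 CPM, WT1 at 0.0996 to 0.340 and SOX17 at 0 to 0.106. Leukocyte markers summed to 0.801 to 2.90 CPM and endothelial markers to 0.911 to 3.30 CPM over the 12 libraries. Of the 5 fibroblast markers DCN was at 0 throughout, and their sum, which was mostly COL1A1, ran from 900 to 967 CPM in control, 611 to 640 with CCNE1, 1535 to 1628 with shTMLHE #1 and 1257 to 1296 with shTMLHE #2. Genes of ribosomal proteins took 12.5 to 13.1% of counts in control, 14.1 to 14.5% with CCNE1, 7.43 to 7.79% with shTMLHE #1 and 7.77 to 7.90% with shTMLHE #2, and mitochondrial genes 4.06 to 4.32%, 3.13 to 3.20%, 5.23 to 5.53% and 2.87 to 2.99%. The part of these sums in the results below was not tested. Weighted by counts, the mean GC content of the genes was 53.1 to 53.3% in control, 52.8 to 52.9% with CCNE1, 51.6 to 51.9% with shTMLHE #1 and 49.9 to 50% with shTMLHE #2.

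The promoters of CDK1, CCNB1, PLK1 and CDC20 are shown because these 4 genes work together at mitotic entry and exit, while their transcripts moved in different directions in the hairpin groups. Each sequence is a RefSeq window of 300 bases around the transcription start in GRCh38.p14, on the plus strand, 5′ to 3′. The windows lie at chr10:60778228-60778527 for CDK1 (one of its 2 RefSeq windows), chr5:69166900-69167199 for CCNB1, chr16:23678639-23678938 for PLK1 and chr1:43358731-43359030 for CDC20. Capitals mark the CHR letters TTTGAA or TTCGAA and the CCAAT box letters CCAAT, each read on either strand (TTCAAA and ATTGG are their forms on the other strand).
CDK1: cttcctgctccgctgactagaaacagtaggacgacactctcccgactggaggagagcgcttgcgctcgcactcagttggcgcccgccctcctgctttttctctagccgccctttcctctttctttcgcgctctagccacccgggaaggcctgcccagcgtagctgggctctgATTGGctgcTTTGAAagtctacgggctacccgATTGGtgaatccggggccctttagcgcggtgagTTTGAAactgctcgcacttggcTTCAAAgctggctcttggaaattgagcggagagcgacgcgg
CCNB1: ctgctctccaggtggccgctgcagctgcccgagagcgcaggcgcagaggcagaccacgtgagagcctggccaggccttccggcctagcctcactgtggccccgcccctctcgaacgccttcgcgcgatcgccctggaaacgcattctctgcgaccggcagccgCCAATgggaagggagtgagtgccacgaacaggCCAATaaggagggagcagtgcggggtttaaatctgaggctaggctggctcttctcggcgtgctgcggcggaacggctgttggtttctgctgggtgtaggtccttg
PLK1: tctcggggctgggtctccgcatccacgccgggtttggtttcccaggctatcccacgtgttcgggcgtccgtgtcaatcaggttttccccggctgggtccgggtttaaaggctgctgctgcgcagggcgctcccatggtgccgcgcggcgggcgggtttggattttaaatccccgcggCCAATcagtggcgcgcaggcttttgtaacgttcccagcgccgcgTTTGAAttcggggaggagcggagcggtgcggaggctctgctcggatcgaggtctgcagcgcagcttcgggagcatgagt
CDC20: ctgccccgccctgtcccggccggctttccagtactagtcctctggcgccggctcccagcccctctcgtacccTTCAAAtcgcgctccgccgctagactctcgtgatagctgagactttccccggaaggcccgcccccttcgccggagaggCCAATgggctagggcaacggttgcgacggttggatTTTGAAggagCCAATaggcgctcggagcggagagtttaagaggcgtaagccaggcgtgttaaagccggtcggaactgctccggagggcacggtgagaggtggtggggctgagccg
In the CDK1 window the CHR letters begin 69 and 13 bases before the start and 10 bases after it, with CCAAT boxes at 78 and 46 bases before it. The PLK1 window holds TTTGAA at 29 and CCAAT at 73 bases before the start, and the CDC20 window TTCAAA at 178, TTTGAA at 65, and CCAAT at 100 and 55 bases before it. The CCNB1 window has CCAAT at 87 and 55 bases before the start and no match to the CHR letters. RefSeq windows were found for 45 of the 52 genes, 57 windows in all, and 7 genes (AURKA, FOXM1, TPX2, BUB3, TTK, UBE2C and BIRC5) had no entry. CHR letters were in 37 of the 57 windows (64.9%), against 16.4% of all 35116 promoter windows, and CCAAT letters in 39 (68.4%) against 34.6%. Both were in 28 windows (49.1%) against 6.38% of all, and matches were counted separately even where 2 motifs share a base. A further set of letters, the E2F forms TTTCCCGC, TTTGGCGC, TTTCGCGC and TTTGCCGC on either strand, was in 4 windows (7.02%) against 3.31%. These are matches of letters and no measure of binding.

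All 52 genes had enough counts to be tested, with 17 counts in the lowest library (NUF2). A gene was called changed at a Benjamini-Hochberg adjusted p under 0.05 over all 15378 tested genes, by the quasi-likelihood test of edgeR, and fold changes are on the log2 scale. With CCNE1, 43 of the 52 were higher than in control, where 25.1% of all tested genes were called higher, 1 was lower (19.1% of all) and 8 were not called. Their median log2 fold change was 0.66, with a range of -0.22 to 1.53, and that of all tested genes was 0.05. With shTMLHE #1 against the CCNE1 group, 31 were higher (30.4% of all genes) and 13 lower (30.3%), with a median of 0.43 and a range of -1.0 to 2.46. With shTMLHE #2 against the same CCNE1 libraries, 33 were higher (36.8%) and 13 lower (36.2%), with a median of 0.60 and a range of -1.44 to 3.43, while the median of all genes was 0.03 in both. The hairpin comparisons share the CCNE1 libraries and are not independent. The genes together took 0.464 to 0.480% of all counts in control, 0.572 to 0.582% with CCNE1, 0.816 to 0.836% with shTMLHE #1 and 0.861 to 0.874% with shTMLHE #2, so the groups did not overlap.

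On CPM, all 3 libraries of the CCNE1 group lay above all 3 controls for 42 genes (25.8% of all tested genes) and below for 2 (21.4%). For shTMLHE #1 against CCNE1 the counts were 31 above (32.5%) and 13 below (31.4%), and for shTMLHE #2 they were 34 above (38.7%) and 13 below (36.9%). Of the called rises, 13 were at least 2-fold with CCNE1, 14 with shTMLHE #1 and 23 with shTMLHE #2. With shTMLHE #2, 3 of the falls (CDC20, UBE2C and SPC24) were at least 2-fold. The share of all tested genes that passed this fold is not given, so these counts only describe the 52 genes. Scaling by total counts in place of TMM, the scaling used throughout, moved the median of all genes by 0.39 for shTMLHE #1 and 0.53 for shTMLHE #2, so hairpin changes are relative to a reference that shifts with the scaling. Under it, 44 of the 52 genes were higher and 5 lower with shTMLHE #1, and 42 higher and 8 lower with shTMLHE #2. Over all genes, the share of higher calls among called genes went from 50 to 75.9% and from 50.4 to 70.7%. For shTMLHE #1 against shTMLHE #2 that share went from 51.9 to 42.3%. It is taken over called genes only, while the counts are out of all 52, so the bases differ. The share of all tested genes called under total counts is not given. A second alternative named beside many values below takes out of each library the smooth dependence of its counts on the GC content and length of the transcript, and is called the trend removed.

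**Figure D1:**
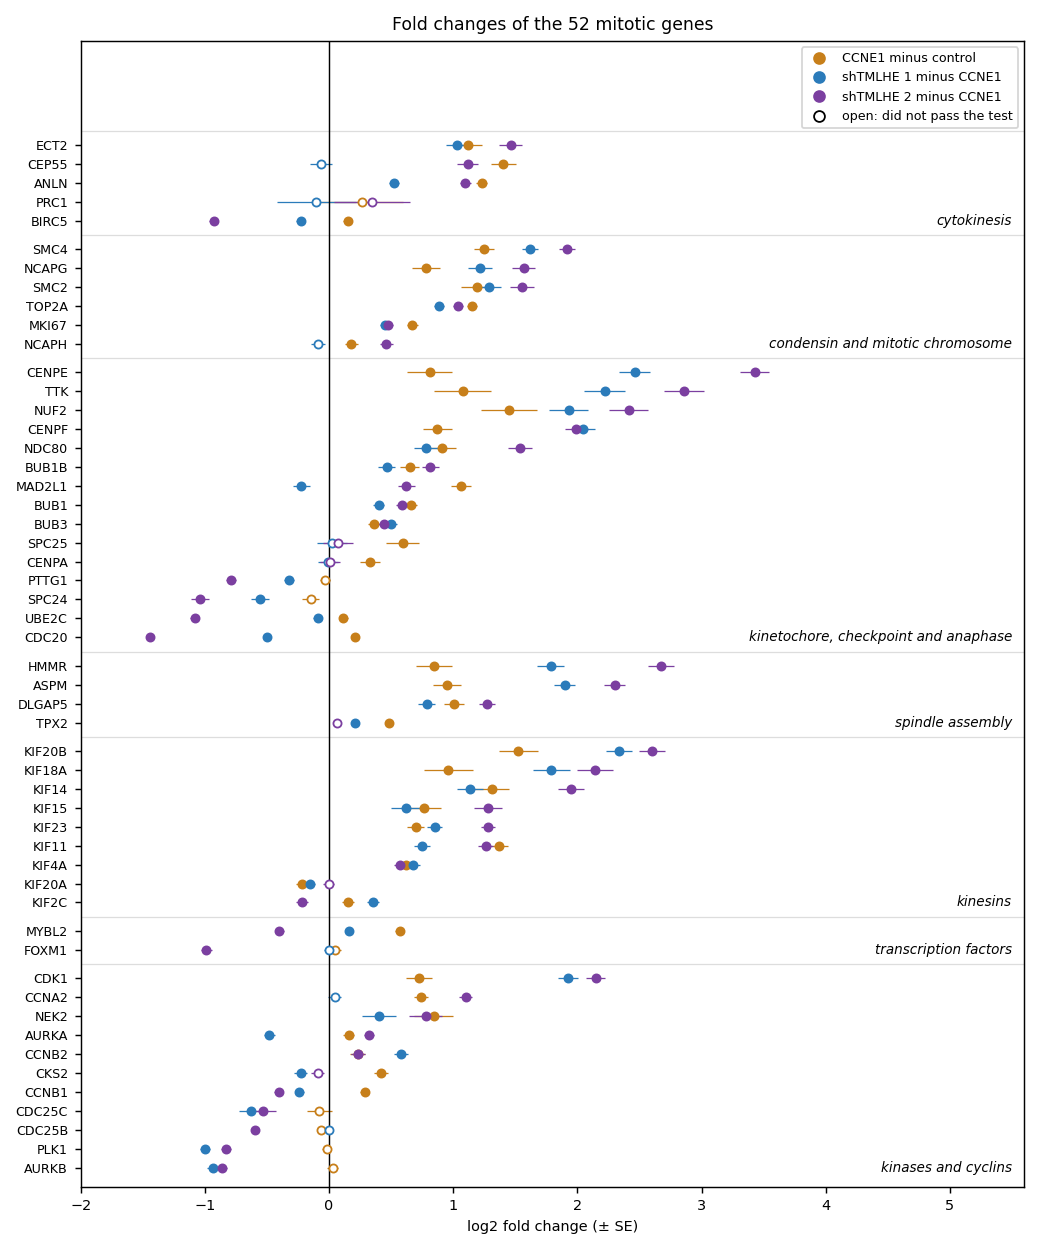
The x axis is the log2 fold change with its SE for each of the 52 genes, grouped by role on the y axis, in 3 comparisons marked by colour. Open points did not pass the test. CENPE reached 3.43 with shTMLHE #2, and CDC20 stood at the other end at -1.44.

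Of the 2 transcription factors, MYBL2 rose with CCNE1 and with shTMLHE #1 while FOXM1 was called in neither, and both were called lower with shTMLHE #2, where MYBL2 turned under total counts and with the trend removed. FOXM1 (ENSG00000111206, chromosome 12, 2857681 to 2877155; all gene positions here are in GRCh38), the forkhead factor of late cell cycle genes, stood at 195, 188 and 190 CPM in the controls, 201, 196 and 197 with CCNE1, 193, 204 and 198 with shTMLHE #1, and 98.2, 97.0 and 105 with shTMLHE #2. The shTMLHE #2 libraries lay apart from all others, and the other 3 groups overlapped or nearly met. Its log2 fold change was 0.05 ± 0.04 with CCNE1 (SE, edgeR adjusted p = 0.34) and 0.00 ± 0.04 with shTMLHE #1 (adjusted p = 0.952; 0.40 under total counts), and it fell by 0.99 ± 0.04 with shTMLHE #2 (adjusted p = 1.2e-22). The CCNE1 value was 0.22 and called with the trend removed, and the shTMLHE #2 value was -0.61. Exons of other genes, most of all ITFG2, cover 15.9% of its exon bases.

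MYBL2 (ENSG00000101057, chromosome 20, 43667019 to 43716496), which joins MuvB in S phase, stood at 313 ± 7.32 CPM in control, 464 ± 8.07 with CCNE1, 519 ± 15.8 with shTMLHE #1 and 352 ± 5.04 with shTMLHE #2 (SD, n = 3), with no overlap between any 2 groups. It rose by 0.57 ± 0.03 with CCNE1 (SE, edgeR adjusted p = 1.74e-16) and by 0.16 ± 0.03 with shTMLHE #1 (adjusted p = 9.44e-05), the latter 0.49 with the trend removed. With shTMLHE #2 its log2 fold change was -0.40 ± 0.03 (adjusted p = 1.84e-13), which became 0.13 under total counts and 0.50 with the trend removed.

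Among the 11 kinases, cyclins and their regulators, 7 rose with CCNE1 and 4 were not called (CDC25B, CDC25C, PLK1 and AURKB), with a median of 0.23. With shTMLHE #1, 3 rose and 6 fell, and with shTMLHE #2, 5 rose and 5 fell. CDK1 and its partner cyclin B1 moved apart in the hairpin groups. CDK1 (ENSG00000170312, chromosome 10, 60778331 to 60794852), the kinase that drives mitotic entry, stood at 15.1, 10.4 and 13.0 CPM in the controls, 18.8, 22.4 and 22.2 with CCNE1, 83.5, 75.7 and 83.1 with shTMLHE #1, and 95.5, 94.6 and 92.3 with shTMLHE #2. Every hairpin library lay above every library without a hairpin. Its change was 1.92 ± 0.08 on the log2 scale with shTMLHE #1 (SE, edgeR adjusted p = 1.98e-22) and 2.15 ± 0.08 with shTMLHE #2 (adjusted p = 1.47e-24), and with the trend removed these were 1.61 and 1.28.

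CCNB1 (ENSG00000134057, chromosome 5, 69167010 to 69178245), cyclin B1, stood at 308, 295 and 311 CPM in the controls, 379, 372 and 365 with CCNE1, 312, 313 and 320 with shTMLHE #1, and 281, 280 and 282 with shTMLHE #2. The CCNE1 libraries were the highest and the shTMLHE #2 libraries the lowest. It rose by 0.29 ± 0.03 with CCNE1 (SE, edgeR adjusted p = 1.09e-08). Its log2 fold changes were -0.24 ± 0.03 with shTMLHE #1 (adjusted p = 1.58e-07) and -0.41 ± 0.03 with shTMLHE #2 (adjusted p = 2.27e-13), and both turned positive under total counts, at 0.16 and 0.12. The CCNE1 and shTMLHE #2 values were 0.10 and -0.73 with the trend removed. Per kilobase of exon (RPKM), cyclin B1 was 37.3 ± 6.16 times the level of CDK1 in control, 27.2 ± 3.22 times with CCNE1, 6.01 ± 0.317 times with shTMLHE #1 and 4.59 ± 0.0974 times with shTMLHE #2 (SD of the ratio, n = 3). A ratio between genes of a library does not depend on the scaling between libraries, though it can depend on GC content, which was 43.2% for CCNB1 and 37.0% for CDK1. Its size also depends on the exon length used, 2558 bases for CCNB1 and 3931 for CDK1, against 2169 and 1948 in their longest transcripts.

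The other cyclins differed from cyclin B1 and from each other. CCNA2, cyclin A2, which acts from S phase to early mitosis, stood at 47.4 ± 4.66 CPM in control, 79.0 ± 0.971 with CCNE1, 81.4 ± 3.58 with shTMLHE #1 and 169 ± 2.89 with shTMLHE #2 (SD, n = 3). The shTMLHE #1 libraries, at 78.7 to 85.5 CPM, overlapped the CCNE1 libraries at 77.9 to 79.6. Its change was 0.74 ± 0.06 with CCNE1 (SE, edgeR adjusted p = 5.38e-13) and 1.10 ± 0.05 with shTMLHE #2 (adjusted p = 8.05e-21), the latter 0.59 with the trend removed. CCNB2, cyclin B2, rose by 0.58 ± 0.06 with shTMLHE #1 (adjusted p = 8.64e-12), to 130 ± 9.58 CPM from 87.0 ± 3.42, and stood at 102 ± 0.647 with shTMLHE #2. CKS2, a small subunit that binds CDK1, was at means of 136, 182, 155 and 171 CPM in control, CCNE1, shTMLHE #1 and shTMLHE #2.

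PLK1 and AURKB, kinases that act from mitotic entry to cytokinesis, were lower with both hairpins. PLK1 (ENSG00000166851, chromosome 16, 23677656 to 23690367) stood at 294, 304 and 297 CPM in the controls, 292, 285 and 306 with CCNE1, 149, 146 and 147 with shTMLHE #1, and 167, 170 and 160 with shTMLHE #2. Control and CCNE1 libraries overlapped, and both hairpin groups lay far below them. It fell by 1.00 ± 0.04 on the log2 scale with shTMLHE #1 (SE, edgeR adjusted p = 2.67e-23) and by 0.83 ± 0.04 with shTMLHE #2 (adjusted p = 2.39e-21), and with the trend removed the values were -0.95 and -0.40. AURKB, the Aurora kinase of the chromosomal passenger complex, stood at 171 ± 1.7, 175 ± 3.89, 91.3 ± 2.90 and 95.8 ± 2.52 CPM in control, CCNE1, shTMLHE #1 and shTMLHE #2 (SD, n = 3). It fell by 0.93 ± 0.04 with shTMLHE #1 (adjusted p = 1.2e-20) and by 0.86 with shTMLHE #2, or by 0.56 and 0.17 with the trend removed.

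AURKA, the Aurora kinase of the spindle poles, was lower with shTMLHE #1 and higher with shTMLHE #2. Its levels were 151, 138 and 142 CPM in the controls, 157, 164 and 160 with CCNE1, 115, 116 and 113 with shTMLHE #1, and 200, 202 and 199 with shTMLHE #2, and no 2 groups overlapped. Directly compared, shTMLHE #1 was below shTMLHE #2 by -0.80 ± 0.04 on the log2 scale (SE, edgeR adjusted p = 3.08e-19), and -0.67 with the trend removed. The phosphatase CDC25B, which activates CDK1, was at means of 440, 421 and 421 CPM in control, CCNE1 and shTMLHE #1 and at 279 with shTMLHE #2. CDC25C, its relative, was at 33.4, 31.7, 20.5 and 21.9 CPM. The centrosomal kinase NEK2 was at 5.53 ± 0.054 CPM in control, 9.90 ± 1.76 with CCNE1, 13.1 ± 0.541 with shTMLHE #1 and 17.1 ± 1.11 with shTMLHE #2. Without CCNE1 replicate 1 its shTMLHE #1 call was lost (log2 fold change 0.29, adjusted p = 0.087, against 0.40 with all libraries).

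**Figure D2:**
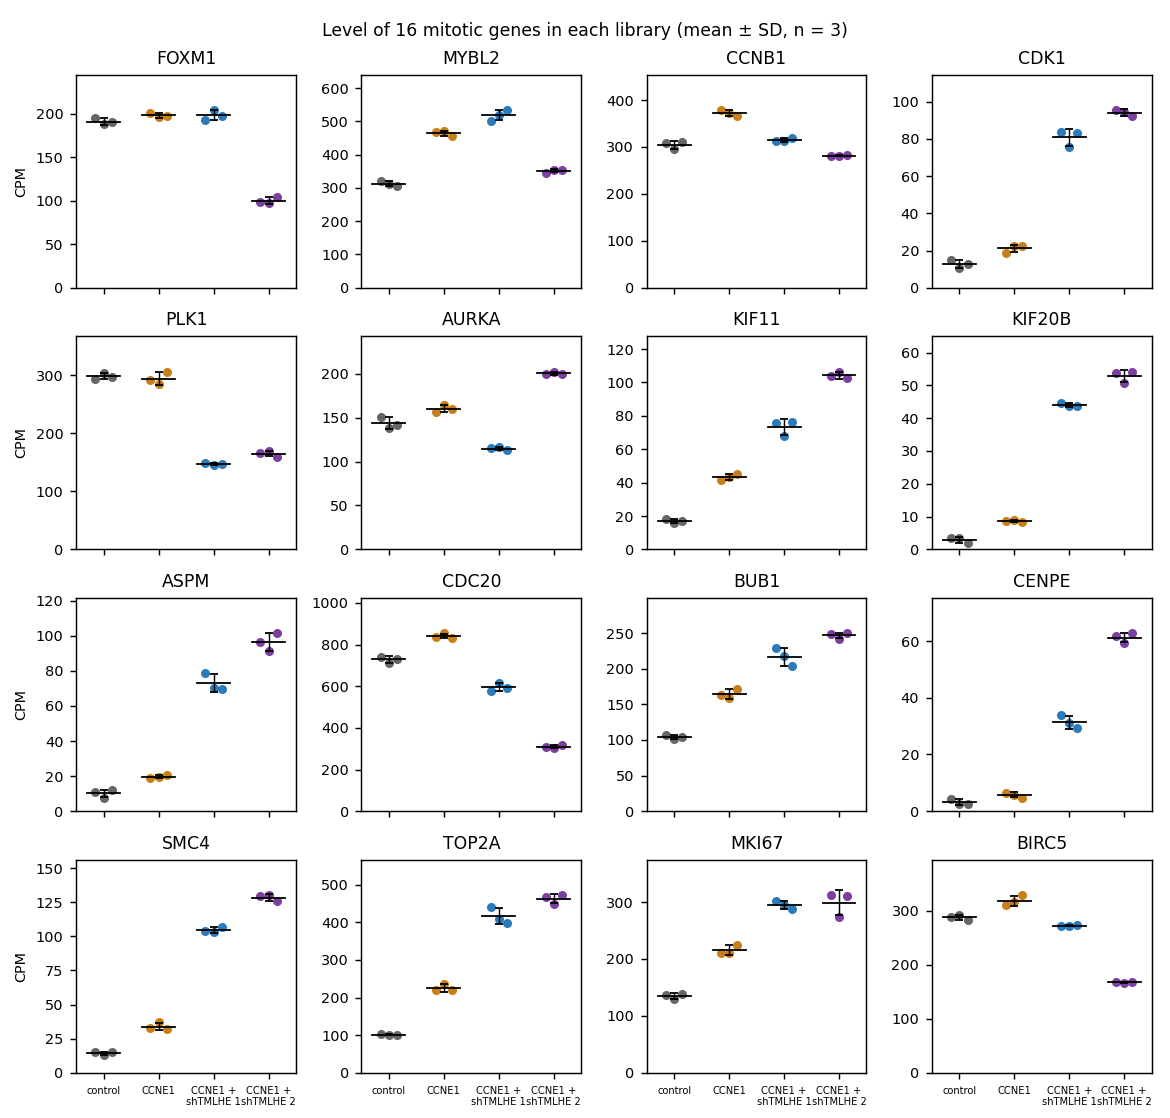
Each panel shows 1 of 16 genes, with CPM on the y axis from 0 and the 4 groups on the x axis. Points are libraries and bars the mean ± SD of 3. PLK1 is low in both hairpin groups, FOXM1 only with shTMLHE #2 among the groups plotted, and CDK1, KIF20B, ASPM and CENPE are high in both.

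Of the 9 kinesins, 8 rose and 1 fell with CCNE1 (median 0.77), 8 rose and 1 fell with shTMLHE #1 (median 0.75), and 7 rose, 1 fell and 1 was not called with shTMLHE #2 (median 1.28). KIF11 (ENSG00000138160, chromosome 10, 92593286 to 92655395), the motor that pushes spindle poles apart, stood at 18.0, 15.8 and 16.8 CPM in the controls, 41.5, 43.7 and 45.2 with CCNE1, 75.4, 67.7 and 76.5 with shTMLHE #1, and 104, 106 and 103 with shTMLHE #2. The 4 groups stood in that order without overlap. It rose by 1.37 ± 0.08 with CCNE1 (SE, edgeR adjusted p = 2.99e-17) and by 1.26 ± 0.06 with shTMLHE #2 (adjusted p = 1.85e-20), of which 0.97 and 0.17 were left with the trend removed.

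KIF20B, a kinesin of the midzone and midbody, showed the largest changes of these 9 with either hairpin. It stood at 3.62, 3.41 and 1.90 CPM in the controls, 8.81, 9.02 and 8.24 with CCNE1, 44.5, 43.8 and 43.6 with shTMLHE #1, and 53.7, 50.8 and 54.1 with shTMLHE #2, with no overlap between groups. Its changes were 2.34 ± 0.11 with shTMLHE #1 (SE, edgeR adjusted p = 1.99e-21) and 2.6 ± 0.10 with shTMLHE #2 (adjusted p = 1.47e-23). With the trend removed they were 1.38 and 1.04. The largest of the 9 with shTMLHE #2 was then 1.05, so KIF20B no longer ranked first there. Its GC content, 34.2%, was the lowest of the 52 genes. KIF23, the motor of centralspindlin, was at 29.6 ± 2.85, 48.2 ± 0.431, 86.9 ± 1.86 and 117 ± 2.61 CPM (SD, n = 3) in control, CCNE1, shTMLHE #1 and shTMLHE #2, and rose by 0.70 ± 0.07 with CCNE1 (adjusted p = 5.68e-11), or 0.45 with the trend removed.

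KIF14, a midbody motor, and KIF18A, which shortens kinetochore microtubules, followed the same order of groups, from 4.54 to 43.7 CPM and from 2.54 to 22.2 CPM in the group means. KIF15, a spindle motor that can act beside KIF11, ran from 7.30 to 30.1 CPM. KIF4A, a chromokinesin, was at 45.2, 69.6, 111 and 104 CPM. KIF20A, which carries passenger proteins to the midzone, was the only one of the 9 called lower with CCNE1, with 164 ± 2.4 CPM in control against 141 ± 2.74, which is -0.22 ± 0.04 on the log2 scale (SE, edgeR adjusted p = 8.75e-05). With shTMLHE #1 it was at 127 ± 5.75 CPM, a log2 fold change of -0.15 that became 0.24 under total counts. KIF2C, which removes tubulin at centromeres, was at 155 ± 12.9, 173 ± 6.06, 220 ± 4.19 and 149 ± 4.73 CPM, and was the only one of the 9 called lower with shTMLHE #2, by a log2 fold change of -0.22 ± 0.05 (adjusted p = 7.16e-05) that became 0.31 under total counts and -0.15 with the trend removed.

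All 4 spindle assembly factors rose with CCNE1 and with shTMLHE #1, and 3 rose with shTMLHE #2. ASPM, a pole protein that focuses microtubules, stood at 10.7, 7.69 and 12.0 CPM in the controls, 18.8, 19.3 and 20.5 with CCNE1, 79.0, 70.4 and 69.6 with shTMLHE #1, and 96.7, 91.3 and 101 with shTMLHE #2, the 4 groups again apart. Its changes were 1.90 ± 0.08 with shTMLHE #1 (SE, edgeR adjusted p = 1.34e-21) and 2.30 ± 0.08 with shTMLHE #2 (adjusted p = 5.97e-25), or 0.98 and 0.83 with the trend removed. HMMR, a microtubule-binding partner of TPX2, stood at 7.87 ± 0.588 CPM with CCNE1 and rose under the hairpins, to 27.2 ± 0.34 (shTMLHE #1) and 50.4 ± 2.44 (shTMLHE #2). DLGAP5, which stabilises kinetochore fibres, stood at 21.3, 42.8, 73.9 and 104 CPM in the 4 groups. TPX2, which activates AURKA on the spindle, was at 364 ± 9.33, 509 ± 5.38, 589 ± 6.34 and 531 ± 14.6 CPM, and rose by 0.48 ± 0.03 with CCNE1 (adjusted p = 6.12e-15). Per kilobase, AURKA was 0.486 ± 0.0247, 0.388 ± 0.00603, 0.240 ± 0.00481 and 0.465 ± 0.0158 times the level of TPX2 in the same order (SD, n = 3).

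Of the 15 genes of the kinetochore, checkpoint and anaphase, 13 rose with CCNE1 and 2 were not called (SPC24 and PTTG1). With shTMLHE #1, 8 rose and 5 fell, and with shTMLHE #2, 9 rose and 4 fell. CDC20, UBE2C, PTTG1 and SPC24 were the 4 called lower with shTMLHE #2, and with shTMLHE #1 MAD2L1 was called lower beside them, though UBE2C, PTTG1 and MAD2L1 were higher there under total counts. CENPE (ENSG00000138778, chromosome 4, 103105806 to 103198409), the kinesin that carries chromosomes to the spindle equator, stood at 4.46, 2.62 and 2.48 CPM in the controls, 6.57, 5.78 and 4.82 with CCNE1, 33.9, 31.0 and 29.2 with shTMLHE #1, and 61.8, 59.4 and 62.7 with shTMLHE #2. The groups did not overlap, and both hairpin groups stood far above the others. Its changes were 2.46 ± 0.12 with shTMLHE #1 (SE, edgeR adjusted p = 8.15e-20) and 3.43 ± 0.12 with shTMLHE #2 (adjusted p = 2.22e-25). As counted, these were the largest of the 52 genes in both comparisons. With the trend removed they were 1.49 and 1.87 and no longer the largest, which were 1.90 and 2.09. CENPF, a large outer kinetochore protein, rose by 2.05 ± 0.09 with shTMLHE #1 (adjusted p = 3.28e-20), from 19.8 ± 3.17 to 82.6 ± 0.706 CPM, and stood at 79.4 ± 3.31 with shTMLHE #2.

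TTK, the kinase that starts the checkpoint signal, stood at 4.81, 4.20 and 4.72 CPM in the controls, 6.87, 13.8 and 7.67 with CCNE1, 49.1, 44.2 and 41.9 with shTMLHE #1, and 68.2, 69.8 and 72.6 with shTMLHE #2. CCNE1 replicate 2 stood well above the other 2 libraries of its group. BUB1, a checkpoint kinase, was at 104 ± 3.13, 164 ± 7.08, 217 ± 12.5 and 247 ± 3.94 CPM (SD, n = 3), BUB1B at means of 29.8, 46.8, 64.5 and 82.3, and their partner BUB3 at 108, 139, 196 and 189. BUB3 was called lower in place of higher with shTMLHE #2 once the trend was removed, as was MAD2L1.

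MAD2L1 (ENSG00000164109, chromosome 4, 120055608 to 120067074) encodes MAD2, which holds CDC20 inactive. It stood at 31.2, 25.8 and 32.3 CPM in the controls, 60.8, 68.5 and 57.0 with CCNE1, 56.9, 51.7 and 51.1 with shTMLHE #1, and 93.3, 94.6 and 99.3 with shTMLHE #2. The CCNE1 and shTMLHE #1 groups nearly met. It rose by 1.06 ± 0.08 with CCNE1 (SE, edgeR adjusted p = 4.4e-14), and its log2 fold change with shTMLHE #1 was -0.22 ± 0.07 (adjusted p = 0.00687), which became 0.17 under total counts and was not called without CCNE1 replicate 2 (-0.14, adjusted p = 0.102). Removal of the trend gave 0.69 with CCNE1, -0.76 with shTMLHE #1 and -0.42 with shTMLHE #2, the last turned from 0.62.

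CDC20 (ENSG00000117399, chromosome 1, 43358955 to 43363203), the activator of the anaphase-promoting complex, was at 357, 413, 292 and 152 RPKM in control, CCNE1, shTMLHE #1 and shTMLHE #2. That was the highest level per kilobase of exon of the 52 genes in the first 3 groups, and with shTMLHE #2 it was below CKS2 at 278 RPKM. The ranking depends on the exon length used, 2038 bases for CDC20 and 1286 for UBE2C, against 1777 and 914 in their longest transcripts. CDC20 stood at 741, 712 and 733 CPM in the controls, 838, 853 and 833 with CCNE1, 579, 616 and 593 with shTMLHE #1, and 310, 304 and 316 with shTMLHE #2, without overlap. It rose by 0.21 ± 0.03 with CCNE1 (SE, edgeR adjusted p = 1.2e-06), fell by 0.50 ± 0.03 with shTMLHE #1 (adjusted p = 1.23e-16) and fell by 1.44 ± 0.03 with shTMLHE #2 (adjusted p = 1.48e-31). With the trend removed the values were 0.39, -0.10 and -0.62. Per kilobase, CDC20 was 54.2 ± 6.05 times the level of its inhibitor BUB1B in control and 39.5 ± 0.705 times with CCNE1. It was 20.3 ± 1.08 times with shTMLHE #1 and 8.27 ± 0.267 times with shTMLHE #2 (SD, n = 3). This ratio can depend on GC content, which was 57.9% for CDC20 and 43.2% for BUB1B.

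UBE2C, the ubiquitin-conjugating enzyme of the same complex, was at 331 ± 3.62, 358 ± 4.41, 336 ± 4.38 and 169 ± 3.6 CPM (SD, n = 3) and fell by 1.08 ± 0.04 with shTMLHE #2 (SE, edgeR adjusted p = 1.96e-26). With shTMLHE #1 its log2 fold change was -0.09, and that became 0.30 under total counts and 0.19 with the trend removed. Without CCNE1 replicate 1 the gene was not called there (adjusted p = 0.061). PTTG1, which encodes securin, the inhibitor of separase, was at 269 ± 10.0, 263 ± 5.22, 211 ± 2.28 and 152 ± 4.95 CPM. It fell by 0.79 ± 0.04 with shTMLHE #2 (adjusted p = 1.74e-20), and its log2 fold change of -0.32 with shTMLHE #1 became 0.07 under total counts and -0.05 with the trend removed.

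The 4 subunits of the NDC80 complex, which binds microtubules at the kinetochore, did not move together. NUF2 was at 2.08 ± 0.898, 5.52 ± 1.18, 21.2 ± 2.88 and 29.7 ± 0.436 CPM (SD, n = 3) in control, CCNE1, shTMLHE #1 and shTMLHE #2, and NDC80 at means of 8.48, 15.8, 27.2 and 46.2. SPC25 was at 9.98, 15.1, 15.3 and 15.8, so its 3 groups with CCNE1 were close. SPC24 (ENSG00000161888, chromosome 19, 11131520 to 11155808) stood at 67.9, 66.3 and 62.6 CPM in the controls, 55.9, 61.5 and 59.9 with CCNE1, 39.1, 37.1 and 44.7 with shTMLHE #1, and 29.6, 27.7 and 29.1 with shTMLHE #2. It fell by 0.56 ± 0.07 with shTMLHE #1 (SE, edgeR adjusted p = 1.48e-08) and by 1.04 ± 0.07 with shTMLHE #2 (adjusted p = 8.97e-16), the latter -0.67 with the trend removed. Per kilobase, SPC24 was 43.6 ± 22.0 times the level of NUF2 in control, 13.0 ± 2.41 times with CCNE1, 2.26 ± 0.237 times with shTMLHE #1 and 1.15 ± 0.0440 times with shTMLHE #2. The control ratio rests on few NUF2 counts and ran from 24.9 to 67.8. All of these ratios can depend on GC content, which was 53.4% for SPC24 and 38.8% for NUF2. CENPA, the histone H3 variant of the centromere, was at 27.6 ± 0.94 CPM in control and at 34.7, 34.5 and 34.9 in the other groups.

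**Figure D3:**
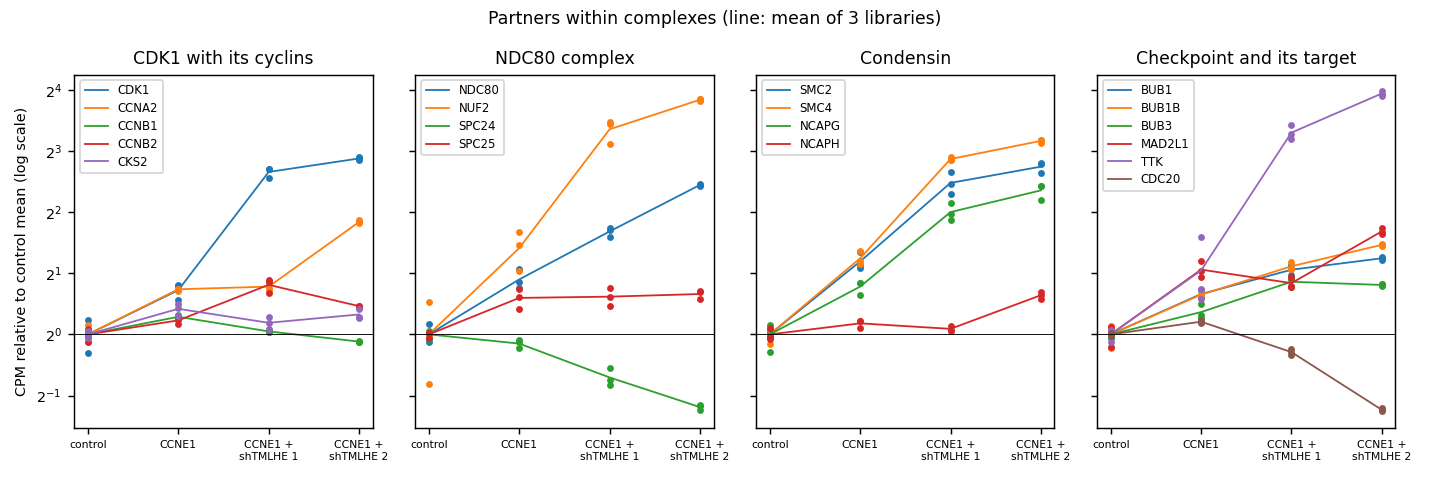
The y axis is CPM relative to the control mean on a log2-spaced axis, and the x axis the 4 groups, for CDK1 with its cyclins, the NDC80 complex, condensin, and the checkpoint with its target CDC20. Points are libraries and lines join the means of 3. CDK1, NUF2 and SMC4 climb while CCNB1, SPC24 and CDC20 end below their control level with shTMLHE #2.

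All 6 genes of condensin and the mitotic chromosome rose with CCNE1 (median 0.97), 5 rose with shTMLHE #1 (median 1.05) and all 6 with shTMLHE #2 (median 1.29). SMC4 (ENSG00000113810, chromosome 3, 160399274 to 160434962), an ATPase subunit of condensin, stood at 15, 12.8 and 15.2 CPM in the controls, 32.9, 37.0 and 31.9 with CCNE1, 104, 103 and 107 with shTMLHE #1, and 129, 130 and 126 with shTMLHE #2. The groups did not overlap and stood in that order. It rose by 1.25 ± 0.08 with CCNE1 (SE, edgeR adjusted p = 9.83e-16), 1.62 ± 0.06 with shTMLHE #1 (adjusted p = 1.38e-23) and 1.92 ± 0.06 with shTMLHE #2 (adjusted p = 1.24e-26), or 0.83, 0.94 and 0.68 with the trend removed. Exons of other genes, most of all TRIM59 on the other strand, cover 25.6% of its exon bases. The strand setting of the counting is not given, so the level of SMC4 is uncertain to that extent.

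SMC2, the partner ATPase, was at 6.98 ± 0.195, 16 ± 1.52, 38.9 ± 4.91 and 46.7 ± 2.64 CPM (SD, n = 3), and the condensin I subunit NCAPG at means of 12.3, 21.2, 49.3 and 63.1. NCAPG shares 33.1% of its exon bases with other genes, most of all LCORL on the other strand. NCAPH, the subunit that closes the condensin ring, was at 85.4 ± 5.9, 96.8 ± 4.16, 90.9 ± 2.95 and 133 ± 5.78 CPM. Per kilobase, NCAPH was 24.2 ± 2.24 times the level of SMC2 in control, 12.0 ± 0.845 times with CCNE1, 4.68 ± 0.732 times with shTMLHE #1 and 5.62 ± 0.106 times with shTMLHE #2, the last 2 groups nearly meeting at 3.98 to 5.44 and 5.52 to 5.73.

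TOP2A (ENSG00000131747, chromosome 17, 40388516 to 40417950), topoisomerase II alpha, which untangles sister chromatids, stood at 104, 99.8 and 101 CPM in the controls, 219, 236 and 219 with CCNE1, 441, 409 and 399 with shTMLHE #1, and 467, 448 and 472 with shTMLHE #2. Every group lay above the one before it. Its rise of 1.15 ± 0.04 with CCNE1 (SE, edgeR adjusted p = 8.07e-23) was 0.77 with the trend removed, while the rise of 1.04 ± 0.04 with shTMLHE #2 (adjusted p = 3.59e-24) became -0.04. MKI67, the gene of the proliferation marker Ki-67, which coats mitotic chromosomes, was at 135 ± 5.4, 215 ± 8.30, 295 ± 7.24 and 299 ± 21.7 CPM. It rose by 0.67 ± 0.05 with CCNE1 (adjusted p = 7.83e-15), and by 0.45 ± 0.04 with shTMLHE #1 (adjusted p = 1.6e-11) and 0.47 ± 0.04 with shTMLHE #2 (adjusted p = 2.71e-12), values that were -0.06 and -0.11 with the trend removed.

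Among the 5 cytokinesis genes, 4 rose with CCNE1, 2 rose and 1 fell with shTMLHE #1, and 3 rose and 1 fell with shTMLHE #2. ANLN, anillin, a scaffold of the contractile ring, stood at 81.7, 73.9 and 75.8 CPM in the controls, 172, 186 and 185 with CCNE1, 275, 256 and 250 with shTMLHE #1, and 390, 387 and 385 with shTMLHE #2. Each group lay above the one before it, without overlap. It rose by 1.23 ± 0.05 with CCNE1 (SE, edgeR adjusted p = 9.19e-23) and by 1.10 ± 0.04 with shTMLHE #2 (adjusted p = 3.38e-24), the latter 0.16 with the trend removed. ECT2, which activates RhoA at the cleavage site, was at means of 20.6, 44.3, 90.6 and 122 CPM. CEP55, the midbody protein of abscission, was at 15.3, 12.7 and 12.3 CPM in the controls, 32.7, 42.2 and 31.6 with CCNE1, 34.3, 35.1 and 33.0 with shTMLHE #1, and 75.1, 80.1 and 77.2 with shTMLHE #2. The CCNE1 and shTMLHE #1 libraries overlapped, and shTMLHE #2 lay above all others.

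BIRC5 (ENSG00000089685, chromosome 17, 78214186 to 78225636), survivin, the passenger protein that brings AURKB to centromere and midzone, was at 289, 292 and 282 CPM in the controls, 311, 317 and 329 with CCNE1, 273, 272 and 273 with shTMLHE #1, and 169, 166 and 168 with shTMLHE #2. The CCNE1 libraries were highest and no groups overlapped. It fell by 0.93 ± 0.04 with shTMLHE #2 (SE, edgeR adjusted p = 8.26e-24), and its log2 fold change of -0.23 with shTMLHE #1 became 0.17 under total counts. PRC1, the microtubule bundler of the midzone, was at 1.78 ± 0.281, 2.13 ± 0.497, 1.99 ± 0.013 and 2.70 ± 0.598 CPM and was called in no comparison. Other gene models, most of all AC068831.7 on the same strand, cover 58.4% of its exon bases, so its counts are uncertain.

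The hairpins were also compared with each other. Of the 52 genes, 12 were higher with shTMLHE #1 than with shTMLHE #2 (31.3% of all tested genes) and 31 were lower (29%), with a median of -0.24 against -0.01 for all genes. All 3 libraries lay above for 13 genes (34.8% of all) and below for 30 (34.9%). With the trend removed, 22 were higher (25% of all genes) and 13 lower (23.1%), with a median of 0.09, so the balance turned. Among the genes picked by the naming rule in this comparison (the rule is given under processing), the largest differences were those of CEP55, -1.18 ± 0.08 (SE, edgeR adjusted p = 1.81e-15), and CCNA2, -1.06 ± 0.05 (adjusted p = 6.09e-20), on one side, and FOXM1, 0.99 ± 0.04 (adjusted p = 3.38e-22), UBE2C, 0.99 ± 0.04 (adjusted p = 1.54e-24), and CDC20, 0.94 ± 0.03 (adjusted p = 5.51e-25), on the other. With the trend removed these were -0.79, -0.69, 0.65, 0.96 and 0.51, each on the same side.

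The change of a gene went with the GC content of its longest transcript. The median GC content of the 52 genes was 42%, with a range of 34.2 to 60.5%, against 48.9% for all tested genes. Spearman's rho between GC content and log2 fold change over the 52 genes was -0.84 with CCNE1, -0.80 with shTMLHE #1 and -0.89 with shTMLHE #2, and over 15373 tested genes it was -0.38, -0.37 and -0.64. These correlations are across genes that share the same libraries, so the points are not independent. With the smooth trend on GC content and length removed, rho with GC content over the 52 was still -0.60, -0.63 and -0.68.

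**Figure D4:**
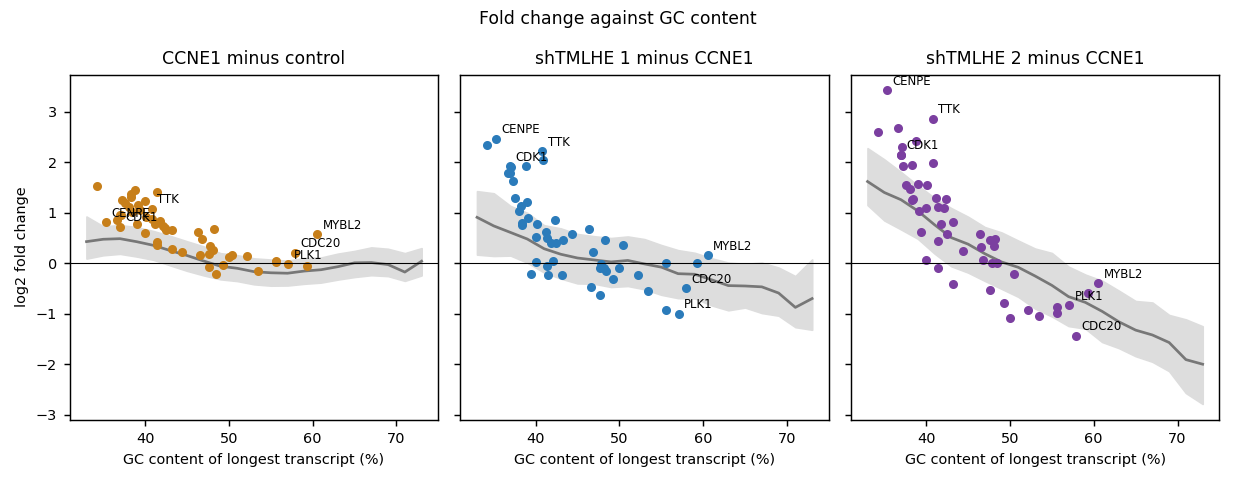
The x axis is the GC content of the longest transcript and the y axis the log2 fold change, for the 52 genes (points) in 3 comparisons. The grey line and band are the median and quartiles of all tested genes in GC bins. CENPE lies above the grey median and CDC20 and PLK1 below it in both hairpin comparisons, while some genes of low GC content, such as MAD2L1 and CKS2, also lie below it there.

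Split by GC content, at limits chosen after the values were seen, the 26 genes under 42% all rose with CCNE1 (median 0.98). Of them 22 rose and 2 fell with shTMLHE #1 (median 1.08), and 24 rose and 2 were not called with shTMLHE #2 (median 1.55). Of the 10 genes at 50% or more, 5 rose and 5 were not called with CCNE1 (median 0.08), 2 rose and 6 fell with shTMLHE #1 (median -0.16), and all 10 fell with shTMLHE #2 (median -0.90). The 16 genes between these limits had medians of 0.31, 0.02 and 0.33. The share of all tested genes called within the same GC limits is not given, so these counts are descriptions. All tested genes also differed by GC content. In GC bins starting at 34 to 40%, their medians were 0.35 to 0.48 with CCNE1, 0.29 to 0.74 with shTMLHE #1 and 0.76 to 1.40 with shTMLHE #2. In bins starting at 50 to 60%, these medians were -0.20 to -0.10, -0.33 to 0.05 and -0.96 to -0.08 in the same order. PLK1, AURKB, FOXM1, CDC20, BIRC5 and UBE2C, which were lowest with shTMLHE #2 or with both hairpins, were among those of 50% or more, and CDK1, SMC4, CENPE and KIF20B among those under 42%. The part of base composition in these changes was not tested beyond the removal of the trend.

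With the trend removed, 43 genes were higher and 1 lower with CCNE1, at a median of 0.44, where 20.2% and 16.4% of all genes were called higher and lower. With shTMLHE #1, 30 were higher (23.7% of all) and 11 lower (31.9%), and with shTMLHE #2, 29 were higher (27.5%) and 17 lower (35.1%), both at a median of 0.20. The calls shared with the unadjusted values were 39 higher and 1 lower with CCNE1, 27 and 10 with shTMLHE #1, and 27 and 11 with shTMLHE #2. A call changed direction for UBE2C with shTMLHE #1, which went from lower to higher. With shTMLHE #2, BUB3, MAD2L1 and MKI67 went from higher to lower, and CDC25B and MYBL2 from lower to higher. Between the hairpins CDK1, CKS2, KIF20B, BUB1, SMC2, SMC4 and TOP2A went from lower to higher with shTMLHE #1.

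**Figure D5:**
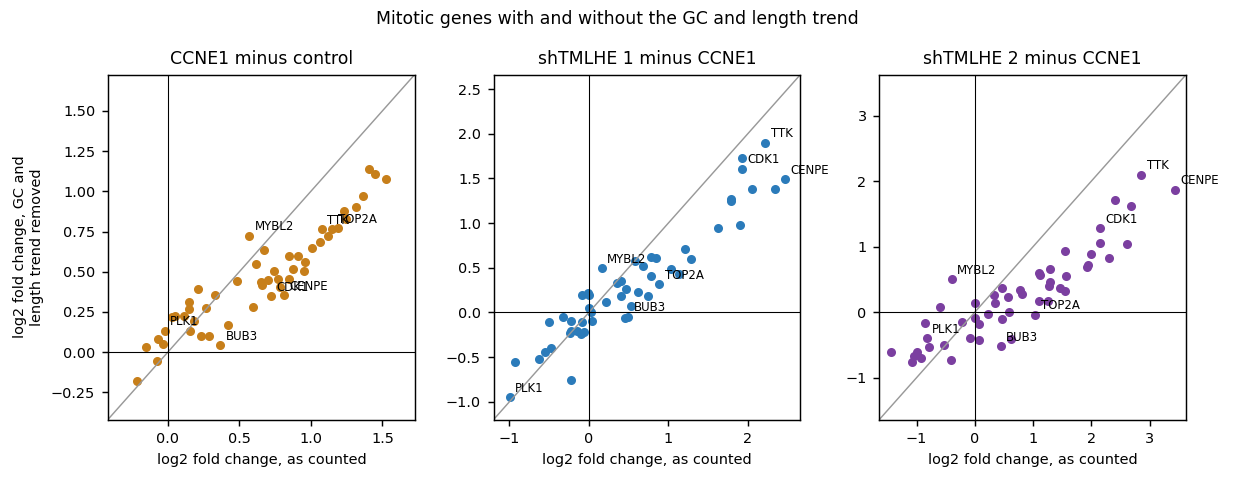
Each point is 1 of the 52 genes, with its log2 fold change as counted on the x axis and with the trend removed on the y axis, in 3 comparisons whose axes differ in range. The grey diagonal marks equal values. TTK, CDK1 and CENPE stay above 0 and PLK1 below it with both hairpins, while MYBL2 and BUB3 change sides with shTMLHE #2.

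The promoter letters were set beside the calls as a description. Of the 34 genes with CHR letters in a window, 30 rose with CCNE1, 24 rose and 5 fell with shTMLHE #1, and 26 rose and 4 fell with shTMLHE #2. Of the 11 genes whose windows had none, 7 rose and 1 fell with CCNE1, 4 rose and 5 fell with shTMLHE #1, and 4 rose and 6 fell with shTMLHE #2. Of all tested genes, 25.1% were called higher and 19.1% lower with CCNE1, 30.4% and 30.3% with shTMLHE #1, and 36.8% and 36.2% with shTMLHE #2. The genes with and without the letters were not matched for GC content of the transcript. The part of the letters or of GC content in these calls was not tested. CDK1, PLK1 and CDC20, whose printed windows all hold CHR letters, moved in different directions with the hairpins. The median GC content of the 57 promoter windows was 61.7%, against 58.7% for all promoters.

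A list of 114 further genes of the same machinery was examined, all of them tested. With CCNE1, 70 rose and 8 fell (median 0.41), where 25.1% and 19.1% of all genes were called higher and lower. With shTMLHE #1 56 rose and 28 fell (median 0.19; 30.4% and 30.3% of all), and with shTMLHE #2 63 rose and 33 fell (median 0.31; 36.8% and 36.2% of all). Removal of the trend gave counts of 63 and 3, 47 and 36, and 48 and 41. The shares of all genes apply to each list below, whose counts are descriptions. Cohesin, the ring that holds sister chromatids, and its regulators had 10 of 16 higher with CCNE1, 12 with shTMLHE #1 and 15 with shTMLHE #2. The cohesin subunit STAG2 rose by 1.67 ± 0.09 with shTMLHE #1 (SE, edgeR adjusted p = 1.23e-19) and 2.11 ± 0.08 with shTMLHE #2 (adjusted p = 1.37e-23), and SGO2, which protects centromeric cohesin, by 2.31 ± 0.17 with shTMLHE #1 (adjusted p = 3.39e-15). STAG2 was at 0.91 and 0.78 and SGO2 at 1.54 with the trend removed.

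The anaphase-promoting complex and its regulators had 9 of 17 higher and 1 lower with CCNE1, 2 higher and 9 lower with shTMLHE #1, and 5 higher and 9 lower with shTMLHE #2. FZR1, the CDC20 relative that activates the complex after anaphase, rose by 0.60 ± 0.04 with CCNE1 (SE, edgeR adjusted p = 2.19e-14) and had a log2 fold change of -1.73 ± 0.04 with shTMLHE #2 (adjusted p = 9.24e-30), or -0.88 with the trend removed. The subunit ANAPC11 had log2 fold changes of -0.95 with shTMLHE #1 and -1.15 with shTMLHE #2, or -0.63 and -0.40 with the trend removed. Of the 17 inner kinetochore and CENPA-loading genes 13 rose with CCNE1, 8 rose and 3 fell with shTMLHE #1, and 8 rose and 6 fell with shTMLHE #2. CENPM, one of them, rose by 0.70 with CCNE1 and had log2 fold changes of -0.90 and -1.54 with shTMLHE #1 and #2, or -0.27 and -0.36 with the trend removed.

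Of 15 other genes of the outer kinetochore and checkpoint, 12 rose with CCNE1, 6 rose and 3 fell with shTMLHE #1, and 11 rose and 2 fell with shTMLHE #2. SPDL1, spindly, which brings dynein to kinetochores, rose by 1.06, 1.55 and 2.07 in the 3 comparisons, and MAD1L1, the partner of MAD2, had a log2 fold change of -1.40 with shTMLHE #2, or -0.41 with the trend removed. Of the 4 other condensin subunits 3 rose with CCNE1, and NCAPH2 of condensin II fell by 0.81 with shTMLHE #1 and by 1.81 with shTMLHE #2, or by 0.34 and 0.72 with the trend removed. Of 26 spindle and midzone genes, 13 rose and 5 fell with CCNE1, 18 rose and 4 fell with shTMLHE #1, and 15 rose and 6 fell with shTMLHE #2, and CKAP2L, a spindle pole protein, rose by 1.52, 1.12 and 1.79 in turn, or 1.18, 0.70 and 0.89 with the trend removed. KIF22, a chromokinesin of this list, fell by 1.15 with shTMLHE #2, or by 0.35 with the trend removed.

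Of the 8 other regulators of mitotic entry, 5 rose with CCNE1, 3 rose and 3 fell with shTMLHE #1, and 5 rose and 3 fell with shTMLHE #2. WEE1, the kinase that restrains CDK1, rose by 1.23 ± 0.07 with shTMLHE #1 (SE, edgeR adjusted p = 2.31e-18), and PLK4, the kinase of centriole duplication, by 2.35 ± 0.12 with shTMLHE #2 (adjusted p = 8.85e-20). These were 0.61 and 1.35 with the trend removed. PKMYT1, a relative of WEE1, had a log2 fold change of -1.09 with shTMLHE #2, which became 0.22 with the trend removed. It shares 31.6% of its exon bases with other genes. Of the 11 MuvB and DREAM genes, which form the complex that binds CHR promoters, 5 rose with CCNE1, 5 rose and 4 fell with shTMLHE #1, and 3 rose and 5 fell with shTMLHE #2.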

How the data were processed

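RNA-seq counts of 12 libraries were used, in 4 groups of 3 that follow the labels. The deposited counts give a whole number for each of 58735 genes, and the authors left them unnormalized. STAR 2.6.1, DESeq2 and the GRCh38 build are listed in the submitters' processing notes. How reads were assigned to genes, and with which strand setting, is not given in the sources used. FPKM deposited by the authors entered an alternative only.

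Tests were run on counts with edgeR 4.0.16 in R 4.3.3. Filtering by filterByExpr kept 15378 genes, libraries were scaled by TMM, and the robust quasi-likelihood fit used a mean for each group over all 12 libraries, with 8 residual degrees of freedom. P-values were adjusted over all tested genes (Benjamini-Hochberg) and called under 0.05. CPM and RPKM used TMM-scaled library sizes and exon lengths, as mean ± SD of 3. GC content, lengths and positions came from GENCODE 29. Genes sharing over 20% of their exon bases with another gene are named as uncertain. The fit was tested on simulated data for CCNE1 against control. It recovered 63% of 2-fold and 63% of 1.5-fold changes, with 4 false calls among 15378 genes. A gene that was not called may therefore still have changed. The 52 genes, the further lists and the tests were chosen with earlier results of these data known. Fold changes with tests are named for the 3 genes of smallest p in each role of 6 or more genes and 2 in smaller ones, genes called against the majority of their role, FOXM1, MYBL2, CCNB1 and MKI67, and the 2 of smallest p in each further list. A gene that this rule names is not reported here.

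Alternatives were RLE, upper quartile and total count scaling, 2 filters on low counts, limma-voom (limma 3.58.1), DESeq2 1.42.0, a fit to the compared groups, a block for the replicate number, removal of a smooth trend on GC content and length (also with the block), each library left out, an adjusted p under 0.01, a fold of at least 1.5, limma-trend on FPKM at pseudocounts of 0.1 and 1 (log2 scale), and overlapping genes left out.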

Additional observations from a re-analysis of the deposited data

Results flagged for a closer look

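The effects of the hairpins differed from each other for 43 of the 52 genes by a direct edgeR test at an adjusted p under 0.05, 12 higher with shTMLHE #1 (31.3% of all tested genes) and 31 lower (29%). The 23 named here were picked by the rule for named genes, partly for the smallest p in this comparison. Values are log2 fold changes of shTMLHE #1 over shTMLHE #2. Higher with shTMLHE #1 were FOXM1 at 0.99, UBE2C at 0.99, CDC20 at 0.94, BIRC5 at 0.70, CDC25B at 0.60, KIF2C at 0.57, MYBL2 at 0.56, SPC24 at 0.48, PTTG1 at 0.47, CCNB2 at 0.35, CCNB1 at 0.17 and TPX2 at 0.15. Lower with shTMLHE #1 were CEP55 at -1.18, CCNA2 at -1.06, HMMR at -0.89, MAD2L1 at -0.84, KIF14 at -0.81, AURKA at -0.80, NCAPH at -0.55, KIF11 at -0.51, DLGAP5 at -0.49, NCAPG at -0.35 and SMC4 at -0.30. AURKA and MAD2L1 were lower with shTMLHE #1 and higher with shTMLHE #2 than in the CCNE1 group, and KIF2C and MYBL2 the other way. Under total counts MAD2L1, MYBL2 and KIF2C changed sides for 1 hairpin. With the GC and length trend removed, MAD2L1 was -0.76 and -0.42 with shTMLHE #1 and #2 against CCNE1, and MYBL2 0.49 and 0.50. Each was then on the same side with both hairpins, while AURKA and KIF2C stayed on opposite sides. Between the hairpins with that trend removed, MYBL2, KIF11, DLGAP5, SMC4 and NCAPG turned sign, and the other 18 kept it.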

How the results depend on the processing

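With the replicate number as a block, the higher and lower counts of the 52 genes stayed at 43 and 1 with CCNE1, 31 and 13 with shTMLHE #1, 33 and 13 with shTMLHE #2, and 12 and 31 for shTMLHE #1 against #2. The numbers did not pair the libraries: the correlation of deviations was -0.046 to 0.026 for equal numbers and -0.031 to 0.034 for different ones, and calls over all genes were 6624, 9231, 11123 and 9125 with the block against 6802, 9338, 11224 and 9277 without.

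With one library left out, higher calls were 42 to 43, 30 to 31, 33 to 34 and 12, lower calls 1, 12 to 13, 13 to 14 and 28 to 31, and medians 0.62 to 0.68, 0.40 to 0.47, 0.59 to 0.63 and -0.26 to -0.22, in the same order. Upper quartile scaling gave medians of 0.51 and 0.72 with shTMLHE #1 and #2, and KIF20A, MAD2L1 and UBE2C were then not called with shTMLHE #1. Total counts gave 2 lower genes with CCNE1, 5 with shTMLHE #1 and 8 with shTMLHE #2, and medians of 0.82 and 1.13 with the hairpins and -0.38 between them. The compared groups alone gave 3 lower genes with CCNE1. At 1.5-fold or more there were 0 lower with CCNE1, 3 lower with shTMLHE #1, and 5 higher and 10 lower between the hairpins. The shares of all tested genes at this fold are not given. The CCNE1 median was 0.50 on log2(FPKM + 1).

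With the GC and length trend removed, alone or with the replicate block, medians were 0.44, 0.20 and 0.20, and between the hairpins 22 were higher and 13 lower at a median of 0.092. The cause of these shifts was not tested.

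Among the genes that the naming rule picks in each comparison, signs turned as follows, and calls of other genes that turned are named in the report. Under total counts shTMLHE #1 gave CCNB1 0.16, KIF20A 0.24, MAD2L1 0.17, UBE2C 0.30, PTTG1 0.074 and BIRC5 0.17, and shTMLHE #2 gave MYBL2 0.13, CCNB1 0.12 and KIF2C 0.31. With the trend removed, MKI67 was -0.065 and UBE2C 0.19 with shTMLHE #1, and with shTMLHE #2 MYBL2 was 0.50, MKI67 -0.11, TOP2A -0.041 and PKMYT1 0.22. Between the hairpins MYBL2 was then -0.0029, MKI67 0.043 (0.044 with the block), KIF11 0.023 (0.022), DLGAP5 0.011, SMC4 0.26 and NCAPG 0.16. FOXM1 with shTMLHE #1 was near 0 in the main fit but not under total counts, as given above. It was -0.0042 with RLE factors, -0.0041 with DESeq2, -0.022 on log2(FPKM + 0.1), -0.021 on log2(FPKM + 1) and -0.019 to 0.022 with one library left out. MKI67 between the hairpins was -0.080 to 0.012 with one library left out.

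Depth limits NUF2, PRC1, KIF20B, KIF18A, CENPE and HMMR, which had under 50 counts in at least 1 library.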
